A study of Mus musculus with 2 samples.

Results

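The measurements cover 10 genes of the loop of Henle, the distal tubule and the collecting duct, read by array in glomerular RNA of mice with experimental lupus nephritis. The genes are Umod, Egf, Kcnj1, Pvalb, Calb1, Trpm6, Scnn1a, Scnn1b, Scnn1g and Hsd11b2. They were chosen by name, as salt-handling and marker genes of these segments, with all their 11 probes, out of 20658 named genes that have a probe on the array. Earlier results of these data were known when the choice was made. All 10 genes passed the filter on dim probes on both arrays, so none is left out below.

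The mice were male and 8 months old, and RNA came from glomeruli, the filtering tufts of the kidney. Both groups had been given 0.5 ml of pristane, an oil that provokes lupus-like autoimmunity, into the peritoneum, and were followed for 4 months. One group was wild type (WT) and the other lacked Sirpa, which encodes the inhibitory receptor SIRPα, in podocytes alone (Sirpa-/-). Each group had 1 array, mice without pristane were not analysed here, and neither the Cre driver nor the number of animals behind an array is given in the sources used here. The series' title asks whether losing SIRPα lets podocytes present antigen and activate T cells through the kinase SYK; the tubule genes are no part of that question.

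With 1 array per group no test between the groups is possible, no p-value is given, and every value below describes these 2 arrays. The only Sirpa probe read 11624 for WT and 17316 for the array labelled Sirpa-/-, a log2 difference of 0.64, which goes against the label. Its position relative to the deleted part is not known here, and other glomerular cells keep Sirpa, so the probe does not settle the label. Whether the labels of the 2 arrays were exchanged cannot be told from the files, and an exchange would turn every direction below. Each direction below is given as the array labelled Sirpa-/- against the WT array, as labelled. The tissue label was set beside podocyte markers. All 12 listed were measured, but so were 18239 of 20658 named genes, so that count does not bear on the tissue. Nephrin (Nphs1) was bright, with processed signals of 34988 and 51876 on the WT array and the other. Magi2 was dim, at 62.3 and 62.6. Scaled to each array, the 12 summed to 403.8 and 442.8, against 30.1 and 23.1 for 14 proximal tubule markers. In bulk RNA of this kind, fewer cells of a type and less RNA per cell cannot be told apart.

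Past the proximal tubule, the nephron reclaims the remaining salt in steps. The thick ascending limb takes up sodium, potassium and chloride through the cotransporter encoded by Slc12a1, and potassium returns to the lumen through the channel of Kcnj1. The distal convoluted tubule takes up sodium chloride through the cotransporter of Slc12a3 and regulates magnesium through Trpm6. The connecting tubule and collecting duct take up sodium through the epithelial sodium channel ENaC under the control of aldosterone. None of these segments belongs to the glomerulus, which is separated from the surrounding tubules when it is isolated.

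Promoter sequence is shown for 3 of the genes with a difference close to or above 2-fold, Umod, Kcnj1 and Trpm6, since these are read in different segments (loop, loop and collecting duct, distal convoluted tubule). The letters are the 250 bases before a RefSeq start on the gene's own strand, 5′ to 3′, from a table built on GRCm38.p6. The windows lie at chr7:119479263-119479512 on the minus strand for Umod, chr9:32393735-32393984 on the plus strand for Kcnj1 and chr19:18749480-18749729 on the plus strand for Trpm6. Capitals mark AGAACA, the half-site of the glucocorticoid and mineralocorticoid receptors, or GTTAAT, a core of the site of the kidney factor HNF1, searched on both strands.
Umod: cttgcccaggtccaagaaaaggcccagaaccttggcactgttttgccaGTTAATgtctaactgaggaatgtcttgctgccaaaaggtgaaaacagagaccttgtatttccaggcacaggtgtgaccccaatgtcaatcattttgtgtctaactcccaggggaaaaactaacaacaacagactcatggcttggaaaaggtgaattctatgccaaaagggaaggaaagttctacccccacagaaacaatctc
Kcnj1: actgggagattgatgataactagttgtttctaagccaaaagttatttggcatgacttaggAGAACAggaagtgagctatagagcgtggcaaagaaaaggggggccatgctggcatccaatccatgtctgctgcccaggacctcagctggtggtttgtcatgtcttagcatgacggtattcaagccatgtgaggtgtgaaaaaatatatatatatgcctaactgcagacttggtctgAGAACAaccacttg
Trpm6: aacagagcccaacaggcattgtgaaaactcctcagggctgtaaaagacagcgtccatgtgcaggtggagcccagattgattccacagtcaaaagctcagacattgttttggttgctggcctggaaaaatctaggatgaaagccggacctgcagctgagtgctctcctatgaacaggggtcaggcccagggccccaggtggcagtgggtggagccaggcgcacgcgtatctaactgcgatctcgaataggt
The Kcnj1 window held AGAACA at 2 places, from 190 to 185 and from 14 to 9 bases before the start. Among 32851 windows of this length in the table, 16.1% held AGAACA. The Umod window held GTTAAT once, from 202 to 197 bases before the start, and 6.43% of all windows held that motif. The Trpm6 window held neither. Windows were listed for 7 of the 10 genes, 9 windows in all, and AGAACA and GTTAAT were each found in 1 of them. A match is a run of letters and not a shown binding site.

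As a set, the genes were higher on the array labelled Sirpa-/-. Because the set was chosen with earlier results of these data known, its counts beside all named genes only describe it. Of 10 genes, 9 lay above 0, with a median log2 difference of 0.82 and a range from -0.10 to 1.39, against a median of 0.0017 over all 18239 named genes measured on both arrays. Calb1, Kcnj1 and Trpm6, 3 of the 10, were at least 2-fold higher, against 1.56% of all named genes. At least 2-fold lower were 0 of the 10, against 1.67% of all named genes. At a fold of 1.5 the count was 6 of 10, against 4.35% of all named genes. Umod (1.96-fold) lay just below 2-fold and Trpm6 (2.05-fold) just above it. Dim genes crossed 2-fold more often: among named genes whose lower signal was under 100, 3.42% were at least 2-fold higher, against 0.679% of brighter ones. Of the 10 genes, 4 had a lower signal under 100. Which genes passed 2-fold depended on the processing: with normexp background correction Calb1 (0.71) and Trpm6 (0.99) no longer did and Umod (1.02) did, where 0.620% of all named genes passed. That correction was run with an added offset of 50, which by itself draws the differences of dim genes toward 0. With scaling on spike-in probes Umod (1.096) and Scnn1b (1.04) joined the 3, and 2.15% of all named genes passed.

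**Figure D1:**
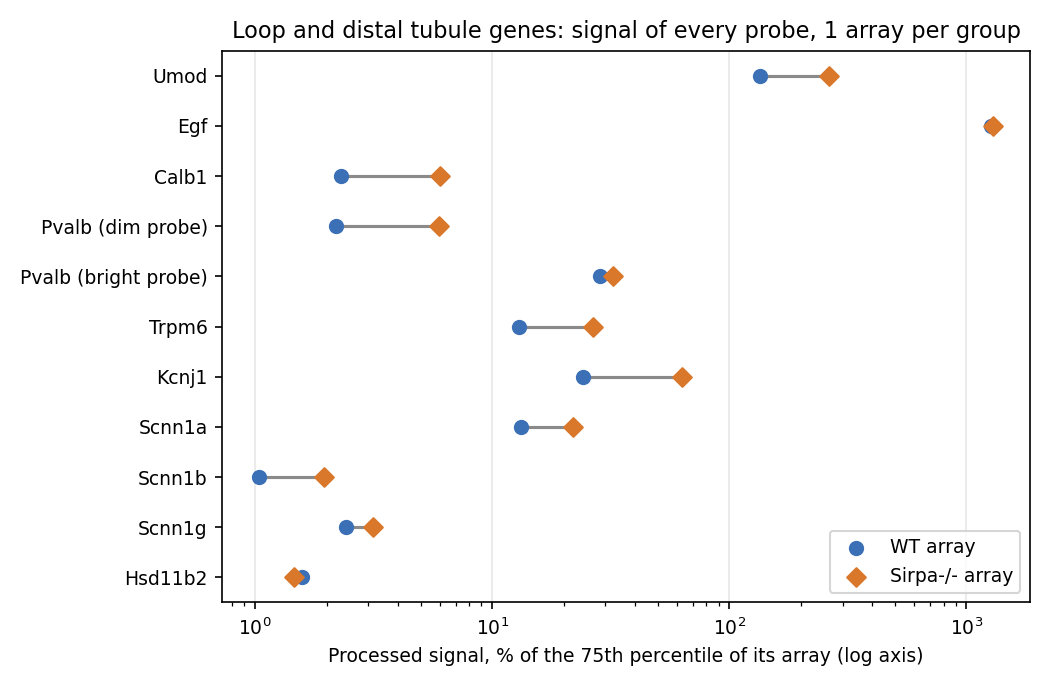
Processed signal of each of the 11 probes as a percentage of its array's 75th percentile (log axis), on the WT array (blue circle) and the array labelled Sirpa-/- (orange diamond), joined by a line. Umod went from 134% to 262% and Kcnj1 from 24.2% to 62.9%, while Egf lay at 1266% and 1294%.

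The precision of a single difference comes from 2 technical sources. The scanner software's own error, carried to the log2 difference, was 0.20 for the brighter genes and reached 0.33 for Scnn1b. The difference exceeded 2 times this error for 6 of the 10 genes, among them the dim Calb1 and Scnn1b. The share of all named genes past that limit was not computed, so the count has nothing to be set against. For probes spotted 8 or more times with a lower signal of at least 100, single-spot differences had a median SD of 0.055 (248 probes), and 95% of these SDs lay below 0.17. For the 102 dimmer probes the median SD was 0.31, and 95% lay below 1.01. Neither figure holds any spread between animals.

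Among the loop genes, Umod and Kcnj1 were higher and Egf was level. Umod, which encodes uromodulin, the main protein of normal urine and a product of the thick ascending limb, had a processed signal of 1552 for WT and 2907 for the array labelled Sirpa-/-. The log2 difference was 0.97 with a software error of 0.20. Kcnj1, the potassium channel of the loop and collecting duct, read 279.7 and 696.9. Its log2 difference was 1.38 with an error of 0.20, or 2.60-fold. Both genes were well above the dim range, and their differences exceeded the spread of repeated spots at that brightness.

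Egf, made as a membrane-bound precursor in the loop and distal convoluted tubule, is the only one of these genes whose probe was spotted 10 times. On the 9 spots usable on both arrays, the WT signals had a lowest value of 13392, a median of 14655 and a highest of 15481. On the array labelled Sirpa-/- these were 13939, 14544 and 15328, so the spots overlapped almost completely. After scaling, 8 of the 9 spots lay above 0, with a mean log2 difference of 0.055 ± 0.043 (SD over spots), and from -0.013 to 0.14. The probe's value from all usable spots of each array (9 and 10) was 0.03. Umod was higher on the array labelled Sirpa-/-, while Egf, which the thick ascending limb also makes, was not. Egf was far brighter than Umod (1552 and 2907), and bulk RNA does not show which cells either signal came from.

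**Figure D2:**
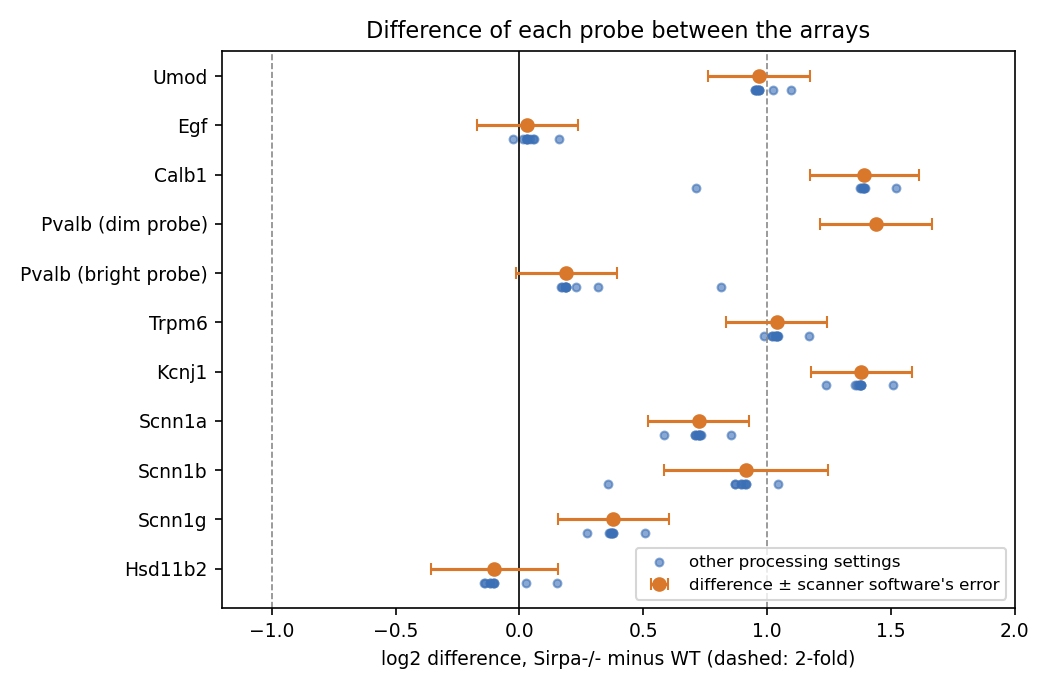
The log2 difference of each probe, Sirpa-/- minus WT (orange, bars give the scanner software's error), with the same gene's value under the other processing settings in blue beneath it. The Pvalb probes stand apart, at 1.44 and 0.19, and Calb1 and Scnn1b each have 1 setting, the normexp background correction, far to the left of the rest.

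Every probe of the distal convoluted tubule genes Trpm6, Calb1 and Pvalb lay above 0, the brighter Pvalb probe only within its software error. Trpm6, the channel kinase through which this segment takes up magnesium, read 150.3 and 295.8, with a log2 difference of 1.04 and an error of 0.21. Calb1, the cytosolic calcium buffer calbindin, read 26.6 and 67.0, a log2 difference of 1.39 with an error of 0.22, or 2.63-fold from a dim WT signal. Both were higher on the array labelled Sirpa-/-, Calb1 within the range where repeated spots scattered most.

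Pvalb, which encodes the calcium buffer parvalbumin of the early distal convoluted tubule, had 2 probes that differed from each other. The brighter probe (A_55_P2114437) read 329.1 and 359.6, a log2 difference of 0.19 with an error of 0.20. The dimmer probe (A_55_P2059040) read 25.4 and 65.9, a log2 difference of 1.44 with an error of 0.23. The 2 probes carry the same accession (NM_013645), and the gap between them, 1.25, was larger than the software error of either. The brighter probe stands for the gene in the counts above. With every probe counted, 10 of 11 lay above 0 and 4 of 11 were at least 2-fold higher, against 1.56% of all 23684 measured probes of named genes.

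The collecting duct genes gave small or dim values. Scnn1a, the pore-forming α subunit of ENaC, read 153.2 and 242.4, a log2 difference of 0.72 with an error of 0.20. Scnn1b, the β subunit, read 12.02 and 21.7, a log2 difference of 0.91 with an error of 0.33. Scnn1g, the γ subunit, read 28.03 and 34.9, a log2 difference of 0.38 with an error of 0.22. All 3 subunits were higher on the array labelled Sirpa-/- and 0 reached 2-fold. For Scnn1a the difference exceeded 3 times its error, while that of Scnn1g did not reach 2 times.

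Hsd11b2, the enzyme that inactivates glucocorticoids and so leaves the mineralocorticoid receptor to aldosterone, read 18.2 and 16.2. Its log2 difference of -0.10 was smaller than its error of 0.26, and it is the only one of the genes below 0. That sign turned to 0.03 with scaling on the spike-in probes and to 0.15 with normexp background correction. The 153 negative control spots had a 95th percentile of 2.05 and 1.62 on the WT array and the other, but their highest single spots read 14.5 and 22.4. Scnn1b thus lay below the brightest negative control on both arrays, and Hsd11b2 on the array labelled Sirpa-/-.

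**Figure D3:**
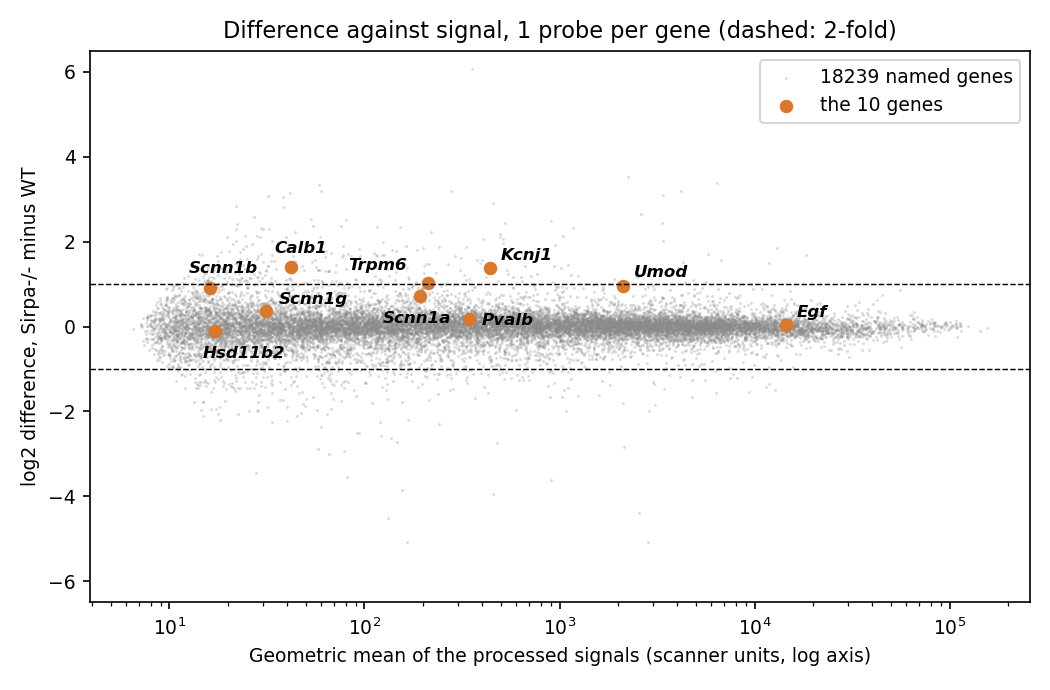
The log2 difference of 18239 named genes (grey) against the geometric mean of their processed signals (log axis), with the 10 genes in orange and 2-fold as dashed lines. Kcnj1, at 1.38, and Umod, at 0.97, lie above the band of genes of like signal, and Scnn1b and Hsd11b2 lie in the wide left end.

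The other genes of the pathways were described with 4 lists. Together these lists held 64 genes beside the 10, of which 61 were measured: 43 lay above 0, against 50.3% of all named genes. Past 2-fold were 7 higher genes and 1 lower gene, against 1.56% and 1.67% of all named genes, and the log2 differences had a median of 0.11. That median lay nearer to 0 than the 0.82 of the 10 genes, and whether the 2 sets differ was not tested.

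In the thick ascending limb list, 14 genes beside Umod, Egf and Kcnj1 were measured, and 9 lay above 0, with a median of 0.30. Barttin (Bsnd) had a log2 difference of 0.75, and Casr, the calcium-sensing receptor, was 2.40-fold higher at dim signals of 28.1 and 64.6. Kng2, a kininogen gene, had a log2 difference of 1.58, with signals of 94.7 and 272.1. The cotransporter Slc12a1, which drives salt uptake in the segment, did not follow, at -0.15 with signals of 221.8 and 191.4. Claudins gave -0.05 for Cldn14 (383.8 and 355.2) and, at dim signals, -0.18 for Cldn19 (95.7 and 80.7) and 0.10 for Cldn10 (87.9 and 90.3). Cldn16 gave 0.23, but its signals of 12.3 and 13.9 lay below the brightest negative control on each array. Slc9a3, a sodium-proton exchanger that the proximal tubule also uses, was 2.72-fold lower, from a dim 36.0 to 12.7. The lower signal lay below the brightest negative control of its array.

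In the list of the distal convoluted tubule and its WNK kinases, 16 genes beside Pvalb were measured, with a median of 0.12. Slc12a3, the thiazide-sensitive cotransporter, was 5.77-fold higher, with signals of 22.6 and 124.9, so the fold starts from a dim WT signal. Kcnj10, a basolateral potassium channel of this segment, was 2.60-fold higher, with 105.1 and 261.5. The sodium pump's β subunit Atp1b1 gave 0.98 (1076 and 2026). Kinases that control the cotransporter gave smaller or opposite values. Wnk4 gave 0.14 at dim signals of 73.3 and 77.4. Wnk1 gave -0.04 (9134.5 and 8508), and 0.37 on its dimmer other probe. Oxsr1 gave 0.21 (1154 and 1280), and 0.26 on its other probe. Stk39 (SPAK) lay at -0.99, with signals of 5459 and 2626. Wnk1, Oxsr1 and Stk39 were far brighter than Slc12a3, and bulk RNA does not show which cells their signals came from.

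In the calcium and magnesium list, 16 genes beside the 5 shared ones were measured, with a median of 0.09. S100g, the small calbindin of calcium-transporting epithelia, had bright signals on both probes. It read 2564 and 6391, a log2 difference of 1.38, and 1.48 on its other probe with 2335 and 6231. The calcium pump Atp2b1 gave 0.11. The calcium exchanger Slc8a1 gave 0.87, but its signals of 12.2 and 21.4 lay below the brightest negative control on each array (14.5 and 22.4). Trpv5, the apical calcium channel, was marked well above background on the array labelled Sirpa-/- only (a signal of 11.2 against 2.07). Its bound of at least 1.73-fold higher sets the 11.2 against the lowest WT signal well above background. That 11.2 also lay below the brightest negative control of its array. Trpm7, the relative of Trpm6, lay at -0.0030 with signals of 13979 and 13361. The EGF receptor Egfr lay at -0.50 (-0.71 and -0.04 on its other probes), and the co-receptor klotho (Kl) at 0.74.

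In the aldosterone and ENaC list, 17 genes beside Scnn1a, Scnn1b, Scnn1g and Hsd11b2 were measured, 15 above 0, with a median of 0.13. The tissue kallikrein Klk1, made in the connecting tubule, was 2.73-fold higher, with signals of 687.4 and 1796. Kallikrein genes are near-identical copies, and the probe could pick up more than one. The mineralocorticoid receptor Nr3c2 gave 0.67 at dim signals of 54.6 and 83.4. Targets of corticosteroid receptors differed among themselves: Tsc22d3 gave 0.57, Usp2 0.92, Sgk1 0.07 and Per1 0.01. The channel's proteases gave 0.84 for Tmprss2, 0.09 for Prss8 and 0.02 for Furin, and the ubiquitin ligase Nedd4l gave 0.21 and -0.12 on its other probe.

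**Figure D4:**
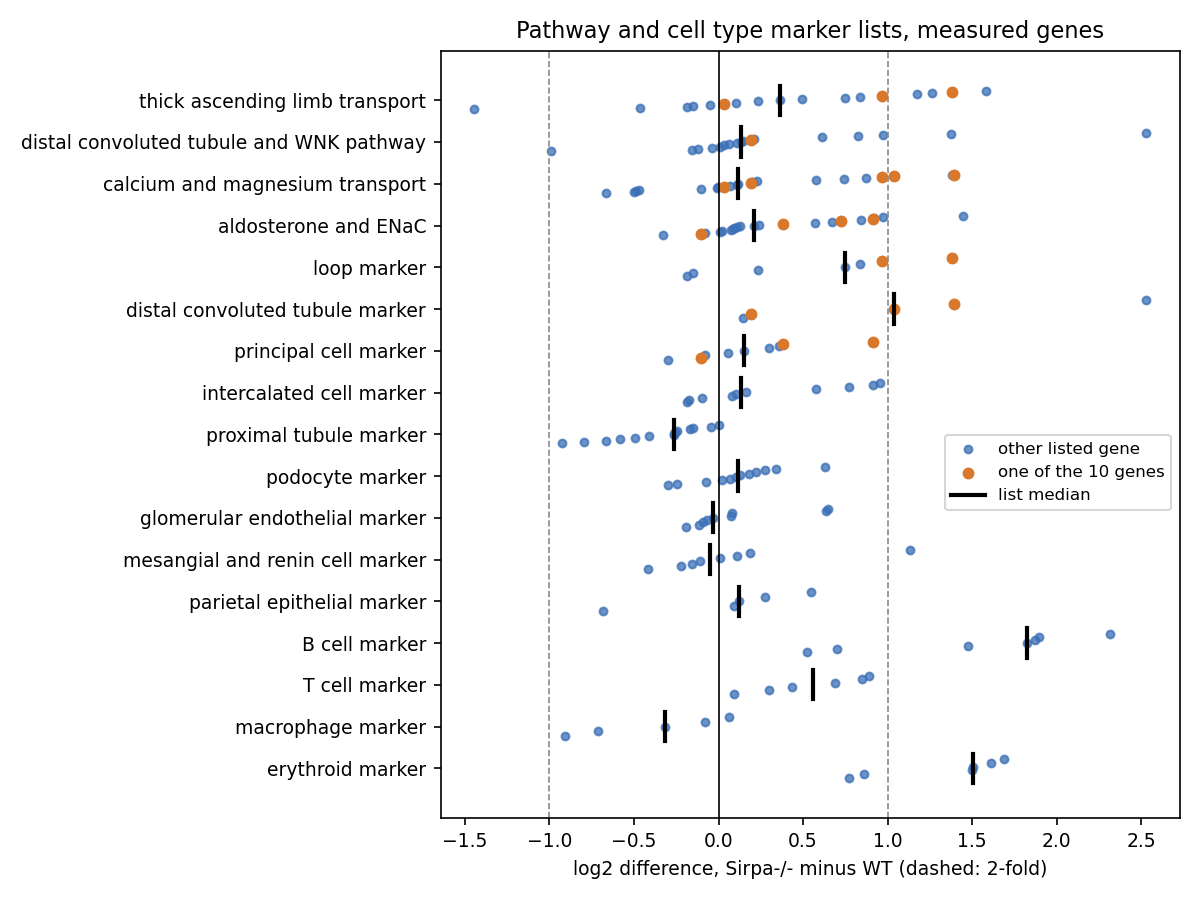
The log2 difference, Sirpa-/- minus WT, of every measured gene of the 4 pathway lists and the 13 marker lists (1 point per gene, orange for the 10 genes, black bar for the list median). The medians run from -0.31 for macrophage markers to 1.82 for B cell markers, and 13 of 14 proximal tubule markers lie below 0.

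Markers of other cell types were set beside these values. Proximal tubule markers went the other way, with 13 of 14 below 0, 0 at 2-fold and a median of -0.26, and their summed level went from 30.1 to 23.1 times the array's 75th percentile. The 10 intercalated cell markers had a median of 0.13 and 0 at 2-fold, with 7 of 10 above 0. Rhcg (0.96) and the defining factor Foxi1 (0.91) were the highest, the others ran from -0.19 for Atp6v1b1 to 0.77 for Slc4a1, and the summed level went from 0.73 to 1.04. Slc4a1 is also counted among the erythroid markers below, so its value does not belong to intercalated cells alone. The 9 principal cell markers had a median of 0.15, and 3 of them are among the 10 genes; the values were 0.15 for the water channel Aqp2 and 0.05 for Aqp3. Without those 3 the summed principal cell level was 1.27 and 1.30. Loop markers without Umod and Kcnj1 summed to 0.39 and 0.44. Of the distal convoluted tubule markers other than the 10 genes, only Slc12a3 and Wnk4 were measured, and they summed to 0.083 and 0.18. All listed markers of these segments were measured on both arrays apart from Trpv5 and from Klhl3, for which no probe was named.

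Markers of B cells and red blood cells lay in the same direction as the 10 genes, with higher medians. B cell markers had a median of 1.82, with 5 of 7 at least 2-fold higher and a summed level of 0.99 and 3.75, and erythroid markers 1.504, with 4 of 6 and 52.3 and 114.5. The 6 T cell markers had a median of 0.56 with 0 at 2-fold, summed to 1.35 and 1.62, and the 5 macrophage markers one of -0.31, summed to 4.84 and 3.86. For the 12 podocyte markers the median was 0.12 and for the 9 glomerular endothelial markers -0.03, with 0 at 2-fold in either list, and they summed to 403.8 and 442.8 and to 240.8 and 227.5. The 8 mesangial and renin cell markers gave a median of -0.05 and the 5 parietal epithelial markers one of 0.12. The part of tubule fragments, blood cells or array position in the differences of the 10 genes was not tested.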

How the data were processed

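Total RNA of glomeruli, collected with magnetic beads from digested cortex, was labelled with Cy3 (0.25 µg per the labels' protocols) and hybridised to 1-colour Agilent arrays. Per the file headers, the authors extracted intensity with Feature Extraction 11.0.1.1 (the submitters' processing notes name 9.1), as processed intensity after background subtraction and spatial detrending, beside other values that are flags of the scanner software in the deposited files. Log2 values, per probe and not centred per gene, fill the authors' deposited value table. Its columns share their quartiles, as quantile normalization gives; how they were made is not stated here. It served as an alternative.

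Spots marked as outliers were dropped, log2 intensities of one probe averaged, and each array's 75th percentile subtracted (signals of 1157.5 for WT and 1108.7 for Sirpa-/-). A probe counted as measured with over 50% of its spots well above background on each array: 85.3% and 86.7% of gene probes were well above background on the WT array and the other, and 0 gene spots were saturated. RefSeq accessions without version named 27231 probes (69.1%) through a GRCm38.p6 gene table. The arrays' header names mm9, so the only coordinates given are those of the RefSeq promoter windows. The probe with the highest mean stood for a gene. Scripts (Python 3.11.15, R 4.3.3, limma 3.58.1) were tested on simulated data. Genes named were the 10 genes, any gene of the 4 pathway lists, the first and up to 3 further genes of a marker list, and Sirpa. The 10 genes and the lists were chosen with earlier results of these data known. Some listed genes are counted in their lists but not reported here by name. The number of arrays limits precision. With 2 arrays no likeness of pattern between genes was measured. The normexp alternative used the median spot signal, since the files hold no mean signal, and an offset of 50.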

Additional observations from a re-analysis of the deposited data

How the results depend on the processing

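Over 10 alternative settings, no gene at least 2-fold higher changed sign. Scaling on the 8 spike-in probes moved the median of all named genes from 0.0017 to 0.13 and normexp, chosen after seeing the data, moved it to 0.07. With spike-in scaling 5 of the 10 genes were at least 2-fold higher (2.15% of all genes, against 1.56%), and their median was 0.95. List medians in this section keep the 10 genes, unlike the list medians given above. In the main setting they were 0.37 (thick ascending limb), 0.13 (distal convoluted tubule), 0.11 (calcium and magnesium) and 0.21 (aldosterone). With spike-in scaling they were 0.49, 0.26, 0.24 and 0.34. Among all genes past 2-fold the higher share was then 63.8% against 48.4%, and 58.9% with normexp. With normexp 2 of the 10 were at least 2-fold higher (Kcnj1 and Umod, 0.620% of all genes), and the median of the 10 was 0.47. Calb1 fell to 0.71 and Scnn1b to 0.36, both dim genes whose differences the offset of 50 draws toward 0. Requiring a signal of 100 on both arrays left 6 of the 10 genes, 2 of them (Kcnj1 and Trpm6) at least 2-fold higher (0.679% of all genes left), and medians of 0.032 (thick ascending limb) and 0.12 (aldosterone). With the mean of each gene's probes the aldosterone median was 0.11 and Pvalb 0.82. At a fold of 1.5 the count was 6, and the mean of the 10 differences was 0.69 against a median of 0.82. Of 96 single-gene values under these settings, 79 moved by less than 0.067, the median SD of repeated spots over all signals. For dimmer probes that SD was 0.31. Many of the 79 could not move: both filter settings kept the same probes and values, and averaging probes changed only Pvalb. Settings that only rescale an array shift every gene alike. The count of 79 is thus no measure of stability. Of the 96 values 3 changed sign, Hsd11b2 at 0.03 and 0.15 and Egf at -0.02. No alternative could leave out a replicate, and no paired analysis was possible because each group has 1 array. Dim signals limit Scnn1b, Scnn1g, Hsd11b2 and Calb1.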
